A study of Homo sapiens with 8 samples.

Results

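The SLC25A genes encode the mitochondrial carriers, a family of transporters for nucleotides, phosphate, organic acids, amino acids, metals and cofactors. Their mRNA levels were taken from RNA sequencing of Panc1, an established cell line from a human pancreatic ductal adenocarcinoma. The 40 genes described here are those whose symbol is SLC25A followed by a number and whose mean over all libraries was above 0 log2 CPM; a CPM is a read count scaled to the size of its library. The pattern matched 42 of the 15176 genes listed, and 13112 genes of all kinds passed the same level. The pair left out were SLC25A52, with a mean of -0.48 log2 CPM, and SLC25A34, with a mean of -0.96, while the lowest genes kept were SLC25A21 (0.41) and SLC25A42 (0.60). Members of the family with other names, such as UCP2, MTCH1 and MTCH2, fell outside the pattern and are given as a separate list.

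The study asked how the splicing factor SF3B1 bears on the response of these cells to low oxygen. Control siRNA (siCtrl) cells were held in normoxia at 21% oxygen (n = 2 libraries, replicates 1 and 4) or in hypoxia at 1% (n = 3, replicates 2, 5 and 8). SF3B1 siRNA (siSF3B1) cells were held at 1% oxygen (n = 3, replicates 3, 6 and 9), for 8 hours according to the labels, whose wording does not settle whether siCtrl cells had the same time. No siSF3B1 group at 21% oxygen was analysed here, and the comparisons of oxygen and of siRNA share the 3 siCtrl libraries at 1% oxygen. All groups are of the same line and all received an siRNA. Separate cultures are not stated in the labels, so the p-values rest on the spread between libraries, which may be technical.

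Carriers of this family sit mostly in the inner mitochondrial membrane and exchange or import solutes between the cytosol and the matrix. They are made in the cytosol and reach the membrane through the TOM pore, small TIM chaperones and the TIM22 complex. SLC25A17 is a peroxisomal member and SLC25A46 sits in the outer mitochondrial membrane, so the family name does not place every gene in the inner membrane.

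SF3B1 lay between 417 and 472 CPM in the 5 siCtrl libraries and between 36.3 and 43.3 CPM in the 3 siSF3B1 libraries. Of 7 tested genes of a list of 8 well-known hypoxia-induced genes, 7 were higher at 1% oxygen, with a median log2 fold change of 2.58. With SF3B1 siRNA at 1% oxygen, 5 of those 7 were called lower by limma (adjusted p under 0.05) and 0 higher. Their median log2 fold change with the siRNA was -0.89. Calls made up 71.4% of those 7, beside 66% of all tested genes, and 30.9% of all tested genes were called lower. Libraries held from 20496492 to 25257173 reads, so that 3 reads corresponded to 0.114 to 0.158 CPM. All 8 of 8 ductal epithelial markers stood above 1 CPM, and their summed level was 4910 to 6270 CPM in the siCtrl libraries and 8138 to 10929 CPM in the siSF3B1 libraries. KRT8, KRT18 and KRT19 made up most of that sum, and each was higher in every siSF3B1 library than in any siCtrl library. KRT7 went the other way, at 3.32 to 3.60 log2 CPM in siCtrl and 1.69 to 2.37 in siSF3B1 cells, while EPCAM (2.81 to 3.31 and 2.84 to 3.13) and CDH1 (4.99 to 6.05 and 4.93 to 5.75) overlapped between them. Of 7 fibroblast markers 3 were listed, summing to 14.9 to 55.8 CPM, with COL1A2, DCN, LUM and PDGFRA not among the listed genes, and 1 of 7 blood and endothelial markers, CD68, and 0 of 6 acinar and endocrine markers were listed. The part of these differences in the results below was not tested.

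Levels of the carriers differed widely. Divided by mRNA length, SLC25A5, the main ADP/ATP carrier of dividing cells (uncertain through its antisense gene, as given below), was the highest at 336 CPM per kilobase in siCtrl cells at 21% oxygen. SLC25A3, which carries phosphate and copper, followed at 184, and the glutamate carrier SLC25A22, the ADP/ATP carrier SLC25A6 and the glutathione carrier SLC25A39 stood at 64.6, 61.3 and 58.0 CPM per kilobase. At the other end were SLC25A53, a carrier of unsettled role (0.379), the oxodicarboxylate carrier SLC25A21 (0.751) and the coenzyme A carrier SLC25A42 (0.810). Within groups, the SD of a member's log2 CPM had a median of 0.125 in siCtrl cells at 21% oxygen, 0.0819 in siCtrl cells at 1% and 0.137 in siSF3B1 cells.

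**Figure D1:**
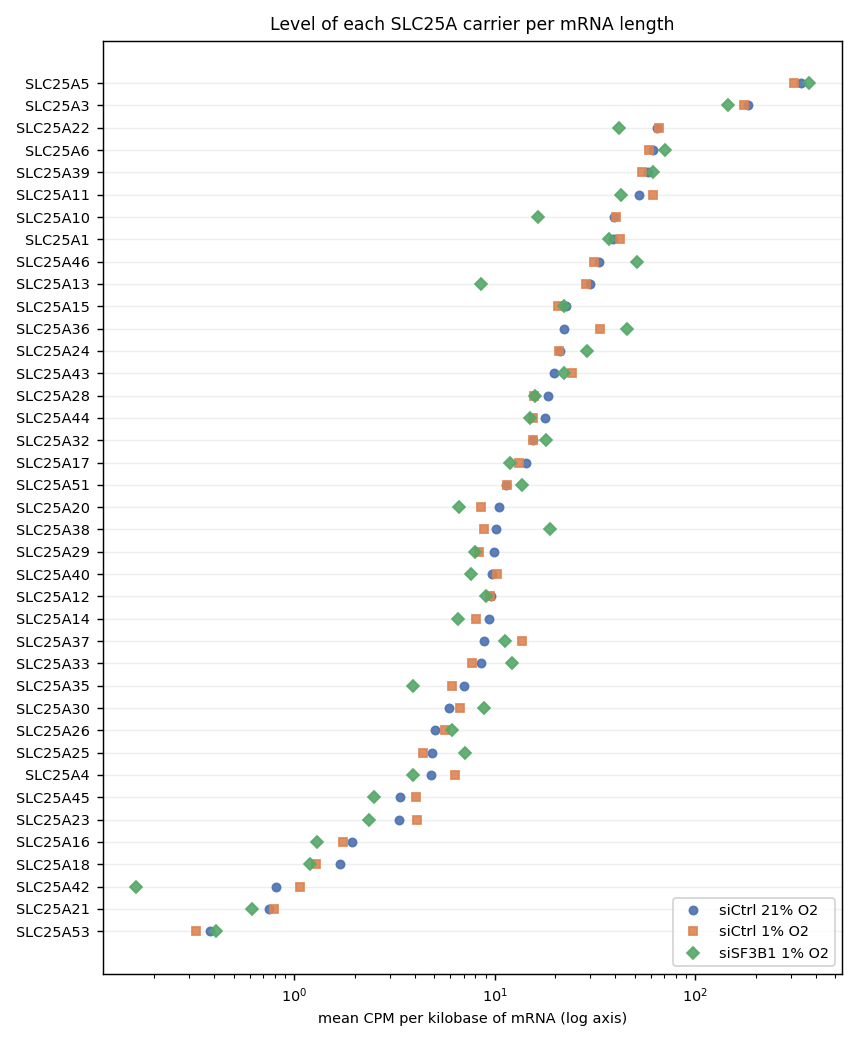
Mean level of 39 SLC25A carriers in CPM per kilobase of mRNA (log axis) in siCtrl cells at 21% oxygen (circles, n = 2), siCtrl cells at 1% oxygen (squares, n = 3) and siSF3B1 cells at 1% oxygen (diamonds, n = 3), ordered by the level at 21% oxygen. SLC25A5 was the highest in all 3 groups, and the diamonds of SLC25A42, SLC25A13 and SLC25A10 lie well to the left of the other symbols.

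Some counts are uncertain because the sources used here do not give whether reads were counted by strand. Exons of SLC25A5, SLC25A11, SLC25A12, SLC25A21, SLC25A22, SLC25A25, SLC25A26, SLC25A30, SLC25A32, SLC25A35 and SLC25A40 overlap another listed gene on the opposite strand, for 33.2% of the exonic length of SLC25A35 (RANGRF). Near-identical sequence adds to this: of all 50-base stretches, 76.2% of SLC25A32, 41.2% of SLC25A10, 21.6% of SLC25A33, 17.6% of SLC25A51 and 12.9% of SLC25A24 also occur in another annotated gene. These members are marked as uncertain below.

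Lowering oxygen from 21% to 1% in siCtrl cells raised 2 carriers. SLC25A36, a pyrimidine nucleotide carrier, and SLC25A37 (mitoferrin-1), which brings iron into mitochondria, rose by 1.52-fold and 1.55-fold. By limma with Benjamini-Hochberg adjustment over all tested genes, 2 of 40 members (5%) passed an adjusted p of 0.05, against 5.65% of all tested genes, so the share of the family was near the background. None was called lower by limma or by voom on the recovered reads, and 3 of the 23 members with a negative fold change had an unadjusted p under 0.05. The median log2 fold change was -0.06 over the members and -0.02 over all genes. With a block for the library-number sets, 3 of 40 members and 1645 of 13112 tested genes were called. The shares above hold for the fit without that block. In bulk samples, fewer cells of a type and less RNA per cell cannot be told apart.

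SLC25A36 (chromosome 3, 140941830 to 140980961, plus strand of GRCh38 in GENCODE 29, which also gives the coordinates below) stood at 5.94 and 6.13 log2 CPM in the siCtrl libraries at 21% oxygen, at 6.65, 6.68 and 6.58 in those at 1%, and at 7.03, 7.10 and 7.13 in the siSF3B1 libraries. No 2 of the groups overlapped, and the siSF3B1 libraries were the highest. The rise with hypoxia was 1.52-fold, a log2 fold change of 0.60 (SE 0.075, 95% CI 0.44 to 0.77, limma adjusted p = 0.00097). SLC25A33, the other pyrimidine nucleotide carrier of the family, gave -0.14 in hypoxia (SE 0.090, limma adjusted p = 0.417).

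SLC25A37 (chromosome 8, 23528805 to 23575463, plus strand) stood at 5.36 and 5.47 log2 CPM at 21% oxygen, at 5.97, 6.004 and 6.16 in siCtrl cells at 1%, and at 5.69, 5.84 and 5.76 in siSF3B1 cells. Again the groups did not overlap, but here the siSF3B1 libraries lay between the others. SLC25A37 rose by 0.63 on the log2 scale with hypoxia (SE 0.086, 95% CI 0.44 to 0.82, limma adjusted p = 0.0018). Its paralog SLC25A28 (mitoferrin-2) had 4.68 and 4.80 log2 CPM at 21% oxygen, 4.44, 4.61 and 4.47 at 1% and 4.49, 4.56 and 4.54 with siSF3B1. The siCtrl groups of SLC25A28 did not overlap, with the hypoxic one lower, but the difference of -0.24 (SE 0.092, limma adjusted p = 0.193) missed the threshold. The log2 ratio of SLC25A37 to SLC25A28 in one library was 0.68 and 0.67 at 21% oxygen, 1.53, 1.39 and 1.69 in siCtrl cells at 1% and 1.20, 1.28 and 1.21 in siSF3B1 cells.

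Among the 38 members without a call, log2 fold changes with hypoxia ran from -0.36 to 0.40 with limma adjusted p from 0.083 to 0.965, and 6 had an unadjusted p under 0.05. The nearest to the threshold was SLC25A4, the ADP/ATP carrier typical of heart and muscle (chromosome 4, 185143241 to 185150382, plus strand). It had 4.27 and 4.55 log2 CPM at 21% oxygen, 4.75, 4.84 and 4.84 at 1% and 4.22, 4.15 and 3.96 with siSF3B1, so both 1% groups were separate from each other and the siCtrl groups did not overlap. The hypoxia difference of 0.40 (SE 0.116, limma adjusted p = 0.083) passed with a block for the library-number sets (adjusted p = 0.018, against a range of 0.018 to 0.471 over 16 alternatives). That block raised the number of all genes called with hypoxia from 741 to 1645, and of members from 2 to 3.

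Of the genes around the carriers, none of 20 import pathway genes, 21 other mitochondrial membrane transporters, 6 shuttle enzymes and 16 ATP synthase subunits was called with hypoxia by limma, with 6 of these 63 at an unadjusted p under 0.05 and 0 called by voom. Import genes were called lower under other settings, 3 with the block, 2 with quantile normalization and 1 with plain read totals, and the block called 3 other transporters higher. In the other lists, 1 of 11 citrate, acetyl-CoA and carnitine enzymes, 2 of 14 one-carbon, proline and glutamate enzymes, 1 of 11 iron-sulfur and heme synthesis genes and 1 of 12 biogenesis genes were called higher, beside 4.35% of all tested genes. GPT2, the mitochondrial alanine aminotransferase, rose by 1.60 (SE 0.192, limma adjusted p = 0.00073). CPOX, a heme synthesis enzyme inside mitochondria, gave 0.58 (SE 0.096, limma adjusted p = 0.0055), but its call was lost without siCtrl replicate 1 at 21% oxygen (adjusted p = 0.0689) and without replicate 4 (0.0533). The other 3 calls were also weak. IDH2, the mitochondrial NADP-dependent isocitrate dehydrogenase, gave 0.81 (SE 0.191, limma adjusted p = 0.036), lost with plain read totals (0.0514), without either siCtrl library at 21% oxygen (0.114 and 0.278), without siCtrl replicate 2 (0.118) or 8 (0.105) at 1% and without siSF3B1 replicate 9 (0.0534). ALDH18A1, the first enzyme of proline synthesis from glutamate, gave 0.33 (SE 0.076, limma adjusted p = 0.034), lost without any one of the 5 siCtrl libraries (0.0741 to 0.290). POLG, the mitochondrial DNA polymerase, whose exons overlap FANCI on the opposite strand, gave 0.31 (SE 0.063, limma adjusted p = 0.016), lost without either siCtrl library at 21% oxygen (0.136 and 0.139) or without siCtrl replicate 2 (0.0684) or 8 (0.054) at 1%.

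The letters ACGTG form the core of the hypoxia response element, the site that HIF factors bind. In promoter windows of 250 bases before to 50 bases after the RefSeq start (GRCh38.p14), 34 of 40 members were in the promoter table, and 10 of 34 (29.4%) held ACGTG on either strand, against 27.1% of 10399 tested genes and 21.6% of 27305 promoters of all genes. CACGTG, which holds ACGTG on both strands, was in 6 of 34 members (17.6%) and in 10.3% of the promoters of tested genes. Of the 6, SLC25A33 (uncertain), SLC25A36, SLC25A38, SLC25A46 and SLC25A51 (uncertain) were called higher with SF3B1 siRNA, and SLC25A13 was called lower. The call of SLC25A51 was weak and was lost with plain read totals (limma adjusted p = 0.233). SLC25A37, called higher with hypoxia, was not among the 34 with a promoter. Among all tested genes the share with CACGTG was 9.76% for those higher with the siRNA, 10.2% for those lower and 11.0% for those not called. A link between CACGTG and the siRNA response was not tested. The 250 bases before the start are shown for SLC25A36, the one carrier higher in both comparisons, and for SLC25A38 and SLC25A13, the members with CACGTG whose siRNA fold change was highest and lowest. They are from RefSeq, written 5′ to 3′ on the gene's strand, with ACGTG on either strand in capitals, at chr3:140941586-140941835 (plus), chr3:39383120-39383369 (plus) and chr7:96322099-96322348 (minus).
SLC25A36: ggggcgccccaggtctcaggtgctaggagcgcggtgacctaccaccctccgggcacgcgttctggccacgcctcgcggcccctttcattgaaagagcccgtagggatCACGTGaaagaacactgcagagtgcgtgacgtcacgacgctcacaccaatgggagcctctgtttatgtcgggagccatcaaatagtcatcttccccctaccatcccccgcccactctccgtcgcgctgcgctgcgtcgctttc
SLC25A38: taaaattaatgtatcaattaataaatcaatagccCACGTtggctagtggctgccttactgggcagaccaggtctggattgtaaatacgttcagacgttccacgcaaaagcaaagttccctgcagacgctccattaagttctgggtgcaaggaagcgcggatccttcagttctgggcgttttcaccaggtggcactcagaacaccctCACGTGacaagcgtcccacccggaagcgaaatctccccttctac
SLC25A13: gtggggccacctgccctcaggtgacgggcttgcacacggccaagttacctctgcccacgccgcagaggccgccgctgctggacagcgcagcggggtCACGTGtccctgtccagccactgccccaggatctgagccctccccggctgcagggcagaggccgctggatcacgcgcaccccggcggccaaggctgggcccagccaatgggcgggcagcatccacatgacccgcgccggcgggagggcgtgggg
A match describes the letters of these windows and says nothing of binding.

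With SF3B1 siRNA at 1% oxygen the carriers spread in both directions. Aspartate-glutamate carrier SLC25A13 and dicarboxylate carrier SLC25A10 fell by 3.35-fold and 2.46-fold, while glycine carrier SLC25A38 rose by 2.11-fold. Coenzyme A carrier SLC25A42 was 6.66-fold lower, but it reached the level for members only through the siCtrl libraries, so that, at its siSF3B1 level, it could be among them only as a gene lower with the siRNA. By limma, 27 of 40 members (67.5%) were called, 11 higher and 16 lower, against 66% of all tested genes, 35% higher and 30.9% lower, so the share called was near the background and is not particular to the family. The median log2 fold change was -0.12 over the members and 0.03 over all genes. Scaling by plain read totals moved the median of all genes from 0.03 to -0.10 and the split of members to 7 higher and 18 lower (28% of calls higher, against 40.7%), with 3551 higher and 4956 lower among all genes. Calls with a doubling or halving, that is 1 log2 unit or more in either direction, numbered 5 of the 40 members, beside 14.0% of all tested genes. SLC25A42 is among these 5 and among the 16 lower, and its direction in both counts follows from the level for members.

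**Figure D2:**
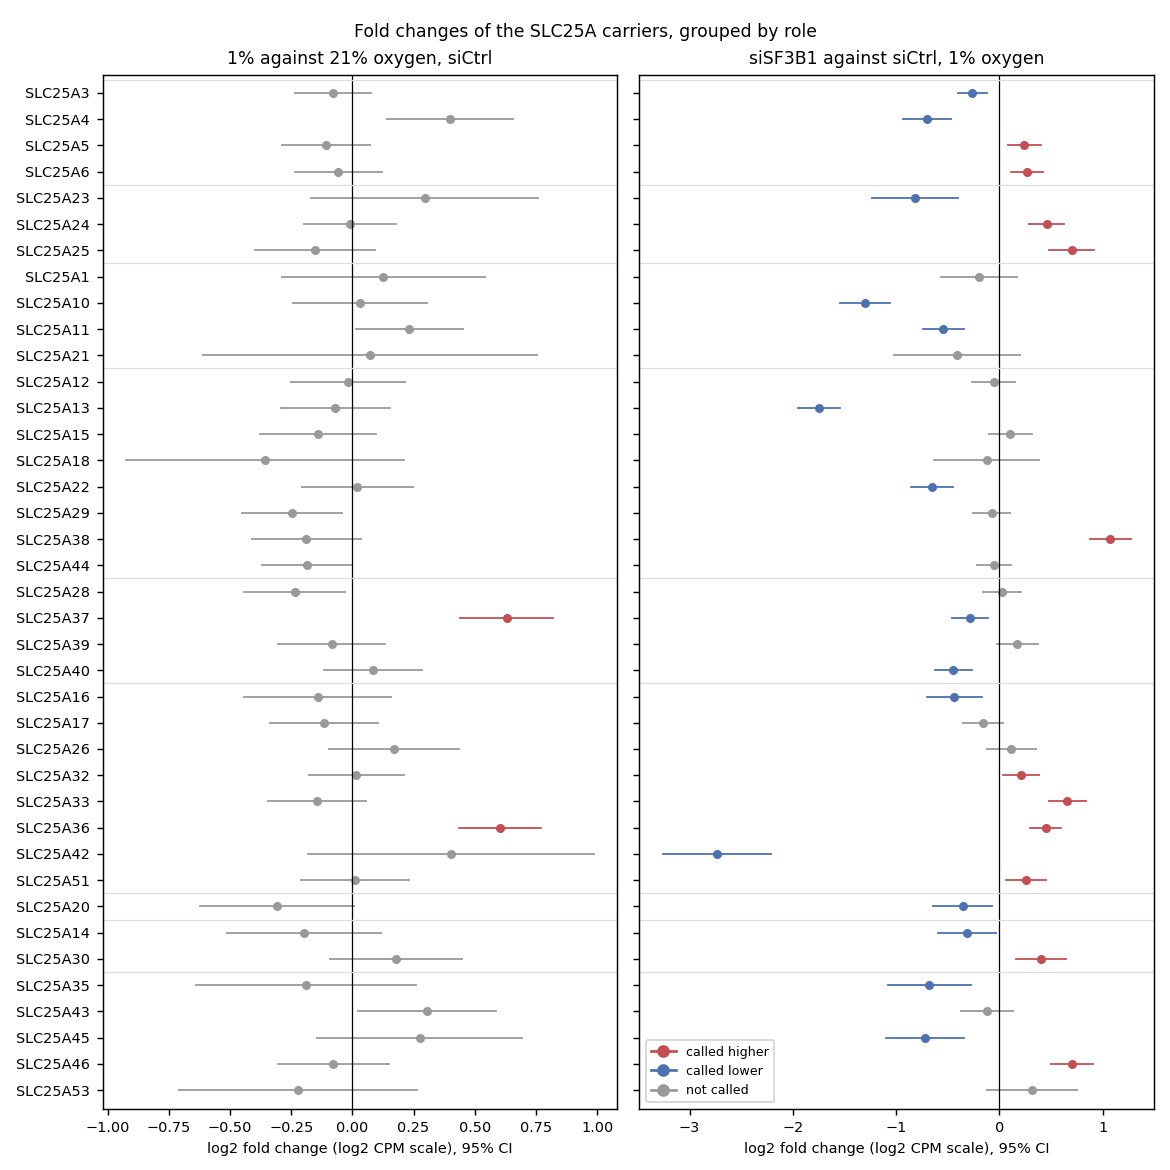
Log2 fold changes of 39 SLC25A carriers, grouped by role, for 1% against 21% oxygen in siCtrl cells (left) and for siSF3B1 against siCtrl at 1% oxygen (right), with 95% confidence intervals from limma and colours for the call at an adjusted p under 0.05. Of those plotted, 2 were called higher with hypoxia, and with SF3B1 siRNA 11 were higher and 15 lower. The axes differ in range between the panels.

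The ADP/ATP carriers did not move together. SLC25A4, whose values are given above, fell by 0.70 on the log2 scale with the siRNA (SE 0.104, 95% CI -0.93 to -0.47, limma adjusted p = 0.0002). SLC25A5 (chromosome X, 119468400 to 119471319, plus strand, uncertain) had 8.65 and 8.83 log2 CPM at 21% oxygen, 8.60, 8.72 and 8.57 in siCtrl cells at 1% and 8.79, 8.96 and 8.86 in siSF3B1 cells. SLC25A6 (chromosome X, 1386152 to 1392724, minus strand) had 7.003 and 6.96, then 6.89, 6.90 and 6.98, then 7.27, 7.05 and 7.26 log2 CPM in the same order. For both genes all siSF3B1 libraries lay above all siCtrl libraries at 1% oxygen.

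SLC25A5 (uncertain) was higher by 0.24 (SE 0.073, limma adjusted p = 0.0137) and SLC25A6 by 0.27 (SE 0.071, adjusted p = 0.0071), but these small rises depended on the scaling. With plain read totals neither was called (limma adjusted p = 0.178 for SLC25A5 and 0.129 for SLC25A6), nor with quantile normalization (0.334 and 0.0759), and SLC25A5 also missed without siCtrl replicate 8 at 1% oxygen (0.0511). Over 16 alternatives the adjusted p ran from 0.00041 to 0.334 for SLC25A5 and from 0.0007 to 0.129 for SLC25A6. The log2 ratio of SLC25A4 to SLC25A5 (uncertain), which does not depend on the scaling of a library, was -4.38 and -4.28 at 21% oxygen, -3.86, -3.88 and -3.73 in siCtrl cells at 1% and -4.57, -4.81 and -4.91 in siSF3B1 cells. That ratio was highest in the siCtrl libraries at 1% oxygen and lowest in the siSF3B1 libraries, with no overlap.

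SLC25A3, the phosphate carrier that feeds ATP synthase (chromosome 12, 98593591 to 98606379, plus strand), had 8.35 and 8.39 log2 CPM at 21% oxygen, 8.34, 8.31 and 8.22 in siCtrl cells at 1% and 8.13, 7.97 and 7.98 in siSF3B1 cells. The siSF3B1 libraries were the lowest, and SLC25A3 fell by 0.26 (SE 0.063, limma adjusted p = 0.0040). Of 16 tested ATP synthase subunits, 5 were called higher and 5 lower, but 0 were higher with plain read totals and 2 with quantile normalization. The share called was 62.5%, beside 66% of all tested genes. The subunit list held ATP5IF1, the inhibitor of the enzyme, which fell by 0.77 (SE 0.107, limma adjusted p = 0.00012).

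The calcium-regulated carriers of ATP-Mg and phosphate split as well. SLC25A23 had 3.66 and 3.35 log2 CPM at 21% oxygen, 4.01, 3.51 and 3.89 in siCtrl cells at 1% and 3.36, 2.83 and 2.76 in siSF3B1 cells, and fell by 0.82 (SE 0.186, limma adjusted p = 0.0030). SLC25A25 (uncertain through its antisense gene SLC25A25-AS1) had 4.14 and 4.11, then 3.91, 3.92 and 4.08, then 4.63, 4.55 and 4.83 log2 CPM, and rose by 0.70 (SE 0.098, limma adjusted p = 0.0001). The siSF3B1 libraries of SLC25A23 were below, and those of SLC25A25 above, every siCtrl library at 1% oxygen. SLC25A24 (uncertain) rose by 0.46 (SE 0.075, limma adjusted p = 0.0004). Within a library the log2 ratio of SLC25A24 to SLC25A23 was 2.31 to 2.85 in siCtrl cells at 1% oxygen and 3.28 to 4.08 in siSF3B1 cells.

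Of the 4 carboxylate carriers, 2 fell, a 50% share of calls beside 66% of all tested genes. SLC25A10, the dicarboxylate carrier for malate and succinate (chromosome 17, 81712236 to 81721016, plus strand, uncertain), had 6.31 and 6.14 log2 CPM at 21% oxygen, 6.16, 6.32 and 6.29 in siCtrl cells at 1% and 5.18, 4.73 and 4.96 in siSF3B1 cells. All siSF3B1 libraries were below all siCtrl libraries, and SLC25A10 fell by 1.30 (SE 0.110, 95% CI -1.54 to -1.06, limma adjusted p = 4.13e-06). SLC25A11, which exchanges oxoglutarate for malate in the malate-aspartate shuttle (uncertain), fell by 0.54 (SE 0.088, limma adjusted p = 0.0004). SLC25A1, the citrate carrier, gave -0.20 (95% CI -0.57 to 0.18, limma adjusted p = 0.323) and was called lower with the block for library-number sets (adjusted p = 0.038) and without siSF3B1 replicate 3 (0.0196), in a range of 0.0196 to 0.806 over 16 alternatives. SLC25A21, the oxodicarboxylate carrier (uncertain), had 13 to 36 reads in a library and gave -0.41 (95% CI -1.02 to 0.20, limma adjusted p = 0.207).

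SLC25A12 (aralar) and SLC25A13 (citrin) perform the same exchange of aspartate for glutamate, the step of the malate-aspartate shuttle that moves reducing equivalents toward the matrix. SLC25A13 (chromosome 7, 96120220 to 96322147, minus strand) had 6.54 and 6.59 log2 CPM at 21% oxygen, 6.42, 6.59 and 6.47 in siCtrl cells at 1% and 4.73, 4.92 and 4.59 in siSF3B1 cells. SLC25A12 (chromosome 2, 171784370 to 171999859, minus strand, uncertain) had 4.68 and 4.98, then 4.78, 4.86 and 4.79, then 4.66, 4.79 and 4.81 log2 CPM. The siSF3B1 libraries of SLC25A13 stood apart below all 5 siCtrl libraries, whereas the groups of SLC25A12 overlapped.

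SLC25A13 fell by 3.35-fold, a log2 fold change of -1.75 (SE 0.090, 95% CI -1.95 to -1.55, limma adjusted p = 2.5e-07), and SLC25A12 gave -0.06 (95% CI -0.26 to 0.15, adjusted p = 0.623). Per kilobase of mRNA, SLC25A13 went from 28.5 CPM in siCtrl cells at 1% oxygen to 8.53 in siSF3B1 cells, next to 9.43 and 9.08 for SLC25A12. Their log2 ratio in a library, not divided by length, was 1.86 and 1.61 at 21% oxygen, 1.63, 1.73 and 1.68 in siCtrl cells at 1% and 0.06, 0.13 and -0.22 with siSF3B1. Of 6 tested shuttle enzymes, 1 was called higher and 3 lower, a 66.7% share of calls beside 66% of all tested genes. GOT1, the cytosolic aspartate aminotransferase, fell by 1.47 (SE 0.094, limma adjusted p = 7.79e-07) and its mitochondrial partner GOT2 by 0.53 (SE 0.105, adjusted p = 0.0013), while MDH2, the mitochondrial malate dehydrogenase, rose by 0.60 (SE 0.063, adjusted p = 1.89e-05).

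**Figure D3:**
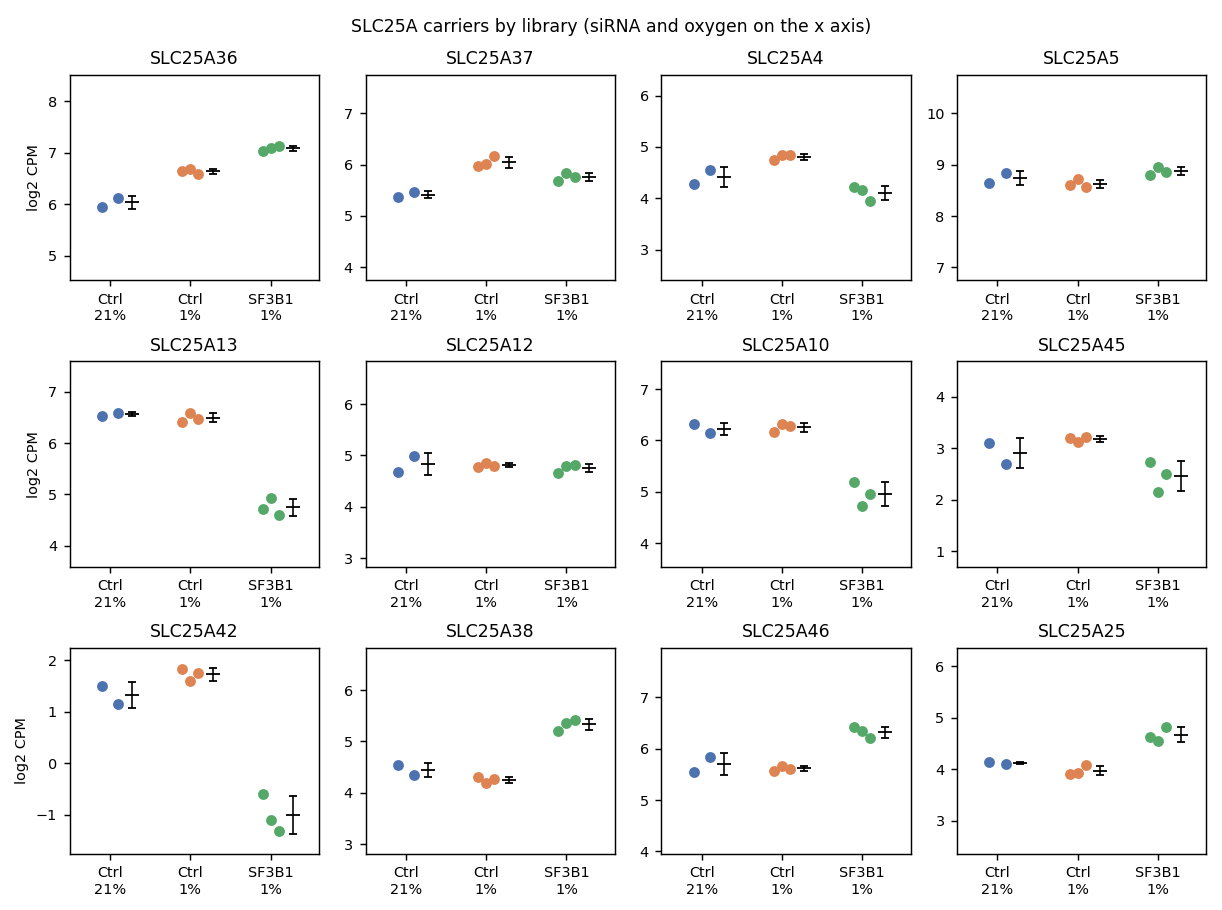
Log2 CPM of 12 SLC25A carriers in each library (points) of siCtrl cells at 21% oxygen (n = 2), siCtrl cells at 1% oxygen (n = 3) and siSF3B1 cells at 1% oxygen (n = 3), with the group mean and SD as black bars; every panel spans the same number of log2 units, with its own offset. SLC25A36 was lowest at 21% oxygen and highest with siSF3B1, SLC25A37 was highest in siCtrl cells at 1% oxygen, and the siSF3B1 points of SLC25A13, SLC25A10 and SLC25A42 lie below all other points while those of SLC25A12 do not.

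Among the other 6 amino acid carriers, 1 rose and 1 fell. Calls made up 37.5% of all 8 amino acid carriers tested, beside 66% of all tested genes. SLC25A38, which carries glycine for the first step of heme synthesis (chromosome 3, 39383324 to 39397351, plus strand), had 4.54 and 4.35 log2 CPM at 21% oxygen, 4.30, 4.19 and 4.27 in siCtrl cells at 1% and 5.21, 5.37 and 5.41 in siSF3B1 cells. Every siSF3B1 library exceeded every siCtrl library, and SLC25A38 rose by 2.11-fold, a log2 fold change of 1.08 (SE 0.089, 95% CI 0.88 to 1.27, limma adjusted p = 3.64e-06). SLC25A22, the main glutamate carrier by level here (uncertain), fell by 0.65 (SE 0.091, limma adjusted p = 0.0001). The ornithine carrier SLC25A15, the glutamate carrier SLC25A18, the basic amino acid carrier SLC25A29 and the branched-chain amino acid carrier SLC25A44 gave 0.11, -0.12, -0.08 and -0.06 and were not called. With plain read totals, where the median of all genes moved to -0.10, SLC25A15 turned to -0.03 and SLC25A44 was called lower at -0.19 (limma adjusted p = 0.0436, in a range of 0.0436 to 0.994 over 16 alternatives).

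Carriers tied to iron and glutathione were lower or not called. SLC25A37, raised by hypoxia, fell by 0.28 with the siRNA (SE 0.077, 95% CI -0.46 to -0.11, limma adjusted p = 0.0081). Its mean of 5.76 log2 CPM in siSF3B1 cells stood between the siCtrl means of 5.42 at 21% and 6.05 at 1% oxygen. The siCtrl libraries at 1% oxygen enter both comparisons with opposite sign, so high values there push the first up and the second down. SLC25A28 gave 0.02 (95% CI -0.16 to 0.21, limma adjusted p = 0.828), with a turn to -0.11 with plain read totals. SLC25A39, a glutathione carrier, gave 0.18 (95% CI -0.02 to 0.37, limma adjusted p = 0.103) and was called higher with the block (adjusted p = 0.0083) and without siSF3B1 replicate 6 (0.0348), in a range of 0.0083 to 0.692 over 16 alternatives, whereas its paralog SLC25A40 (uncertain) fell by 0.45 (SE 0.080, limma adjusted p = 0.0007).

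Of 11 tested genes of iron-sulfur cluster and heme synthesis, 7 were called higher and 3 lower with the siRNA. That is a 90.9% share of calls, beside 66% of all tested genes. The median of the list was 0.31, and 5 of its genes were higher with plain read totals. Those with the smallest p among the higher were ALAS1, the first enzyme of heme synthesis, which rose by 1.00 (SE 0.068, limma adjusted p = 1.18e-06), and ISCU, the scaffold for iron-sulfur clusters, which rose by 0.90 (SE 0.093, adjusted p = 1.57e-05). The 3 lower were PPOX, the enzyme before FECH in heme synthesis, which fell by 1.16 (SE 0.141, limma adjusted p = 4.87e-05) and whose exons overlap B4GALT3 on the opposite strand over 24.3% of their length, UROD and FECH. UROD, a cytosolic heme synthesis enzyme, fell by 0.61 (SE 0.108, limma adjusted p = 0.00058). FECH, which inserts iron into protoporphyrin to form heme, fell by 0.48 (SE 0.102, limma adjusted p = 0.0020).

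The carriers of cofactors and nucleotides held both the largest fall and several rises, with 4 of 9 higher and 3 lower. Their share of calls was 77.8%, beside 66% of all tested genes. SLC25A42, which exchanges coenzyme A for adenine nucleotides (chromosome 19, 19063999 to 19112888, plus strand), had 1.51 and 1.14 log2 CPM at 21% oxygen, 1.83, 1.60 and 1.76 in siCtrl cells at 1% and -0.60, -1.11 and -1.31 in siSF3B1 cells. These values rest on 56 to 80 reads in a siCtrl library and on 12, 8 and 6 reads in the siSF3B1 libraries, which were all the lowest. The fall was 6.66-fold, a log2 fold change of -2.74 (SE 0.235, 95% CI -3.26 to -2.21, limma adjusted p = 4.59e-06), drawn toward 0 by the prior count of the deposited values. The siSF3B1 mean of -1.01 log2 CPM was under the level of 0 asked of the mean over all libraries, which SLC25A42 passed through the siCtrl groups (1.33 and 1.73), so its direction follows from its place among the members and is given as a description. SLC25A16, also linked to coenzyme A, fell by 0.44 (SE 0.121, limma adjusted p = 0.0091).

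Both pyrimidine nucleotide carriers rose. SLC25A36 gained a further 0.45 with the siRNA (SE 0.067, limma adjusted p = 0.0002), so that it was the one member called higher in both comparisons, which share the siCtrl libraries at 1% oxygen. SLC25A33 (uncertain) rose by 0.66 (SE 0.081, limma adjusted p = 5.13e-05).

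SLC25A32, which carries folate or FAD (uncertain), was higher by 0.21 (SE 0.078, limma adjusted p = 0.0368), and SLC25A51, the NAD carrier (uncertain through its near copy SLC25A52), by 0.26 (SE 0.089, adjusted p = 0.0262). Both calls were weak. That of SLC25A32 was lost with plain read totals (limma adjusted p = 0.370), with a fit to the compared groups alone (0.0541) and without any library other than siSF3B1 replicate 3, from 0.0543 without siCtrl replicate 1 at 21% oxygen to 0.114 without siSF3B1 replicate 6. The call of SLC25A51 was lost with plain read totals (limma adjusted p = 0.233) and without siCtrl replicate 2 (0.0823) or 5 (0.0579) at 1% oxygen or siSF3B1 replicate 3 (0.0624) or 9 (0.0579). Over 16 alternatives the adjusted p ran from 0.0051 to 0.370 for SLC25A32 and from 0.0083 to 0.233 for SLC25A51. The S-adenosylmethionine carrier SLC25A26 (uncertain) gave 0.12 and the peroxisomal SLC25A17 gave -0.16, both not called, with SLC25A26 at -0.01 and SLC25A17 called lower at -0.29 with plain read totals (limma adjusted p = 0.0151, in a range of 0.0151 to 0.347).

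SLC25A20, which imports acylcarnitines for fatty acid oxidation, fell by 0.36 with the siRNA (SE 0.127, limma adjusted p = 0.0299), and quantile normalization ended the call (adjusted p = 0.0626), as did leaving out siCtrl replicate 8 at 1% oxygen (0.118) or siSF3B1 replicate 9 (0.115), in a range of 0.0070 to 0.118. The uncoupling-protein-like SLC25A14 and SLC25A30 differed in sign. SLC25A30 (uncertain) rose by 0.40 (SE 0.109, limma adjusted p = 0.0080). SLC25A14 fell by 0.32 (SE 0.126, limma adjusted p = 0.0476), at the edge of the threshold. Its call was lost without siCtrl replicate 2 (limma adjusted p = 0.138), 5 (0.0734) or 8 (0.0794) at 1% oxygen, without siSF3B1 replicate 3 (0.133) or 9 (0.127), and under 4 other settings, in a range of 0.0089 to 0.138 over 16 alternatives.

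Among carriers of unsettled or other role, SLC25A46, an outer membrane protein that acts on mitochondrial shape (chromosome 5, 110738136 to 110765161, plus strand), had 5.54 and 5.85 log2 CPM at 21% oxygen, 5.57, 5.67 and 5.61 in siCtrl cells at 1% and 6.42, 6.35 and 6.20 in siSF3B1 cells. Every siSF3B1 library was above every siCtrl library, and it rose by 0.71 (SE 0.091, limma adjusted p = 7.15e-05). SLC25A45 had 3.11 and 2.6999 log2 CPM, then 3.20, 3.12 and 3.23, then 2.74, 2.15 and 2.50 in the same order, and fell by 0.72 (SE 0.168, limma adjusted p = 0.0035). The siSF3B1 libraries of SLC25A45 were below the siCtrl libraries at 1% oxygen but overlapped those at 21%. SLC25A35 fell by 0.68 (SE 0.181, limma adjusted p = 0.0073), with the RANGRF overlap given above. SLC25A43 and SLC25A53 gave -0.12 and 0.32 and were not called.

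Genes named outside the pattern and the machinery around the carriers also moved both ways with the siRNA. UCP2, an uncoupling protein of this family, fell by 1.02 (SE 0.141, limma adjusted p = 0.00012), and MTCH2, an outer membrane insertase, gave 0.05 (adjusted p = 0.580), turning to -0.08 with plain read totals and with quantile normalization. MTCH1 gave -0.14 (SE 0.054, limma adjusted p = 0.044), a call kept without siSF3B1 replicate 6 but lost without any other library, from 0.0566 to 0.133, with median centring (0.115) and with a fit to the compared groups alone (0.0664). Of the mitochondrial pyruvate carrier, MPC1 gave -0.09 (limma adjusted p = 0.585), turning to 0.05 with quantile normalization, and MPC2, which overlaps DCAF6, fell by 0.36 (SE 0.073, adjusted p = 0.0016). Of 20 import pathway genes, 7 were called higher, among them the receptors TOMM20 (0.81, SE 0.061) and TOMM22 (0.65, SE 0.063), and 5 lower, among them the pore protein TOMM40 (-0.72, SE 0.091). That list also held TIMM17A, TIMM17B, TIMM23 and TIMM50, which are not of the TIM22 complex. Calls made up 60% of that list, beside 66% of all tested genes.

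Of 21 other mitochondrial membrane transporters, 5 were called higher and 9 lower, a 66.7% share of calls beside 66% of all tested genes. MCU, the calcium uniporter, rose by 1.05 (SE 0.073, limma adjusted p = 1.27e-06), and SFXN2, a sideroflexin of the inner membrane, fell by 1.30 (SE 0.120, adjusted p = 7.35e-06). Of 11 citrate, acetyl-CoA and carnitine enzymes, 3 were higher and 6 lower with a median of -0.36, and with plain read totals or quantile normalization 1 was higher. In one-carbon, proline and glutamate metabolism, 3 of 14 enzymes were higher and 5 lower, with 6 higher with the block, 5 with median centring and 2 with plain read totals. They included the serine hydroxymethyltransferases SHMT1, which fell by 2.07 (SE 0.182, limma adjusted p = 5.41e-06), and SHMT2, which fell by 1.71 (SE 0.077, adjusted p = 1.34e-07), both with short exon overlaps with a neighbour. MTHFD2L, a folate enzyme of mitochondria, rose by 1.85 (SE 0.128, limma adjusted p = 1.21e-06). Of 12 genes of mitochondrial biogenesis and matrix housekeeping, 3 were higher and 5 lower. Calls made up 81.8% of the citrate list, 57.1% of the one-carbon list and 66.7% of the biogenesis list, beside 66% of all tested genes.

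**Figure D4:**
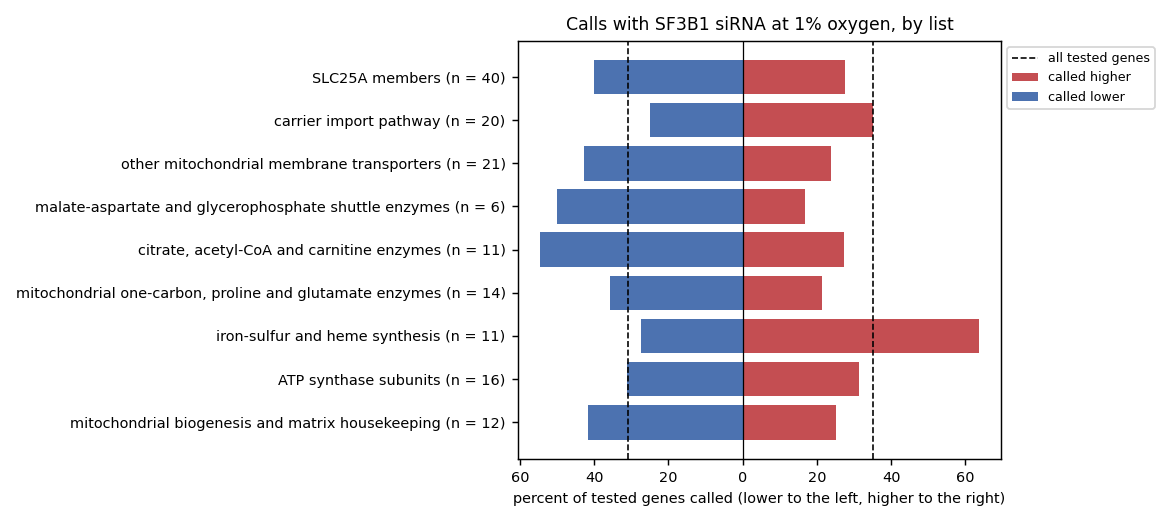
Percent of the tested genes of each list called lower (bars to the left) and higher (bars to the right) with SF3B1 siRNA at 1% oxygen by limma at an adjusted p under 0.05; dashed lines mark the shares over all 13112 tested genes, 30.9% lower and 35% higher. The SLC25A members, at 40 genes, had 11 called higher and 16 lower, and the list of iron-sulfur and heme synthesis, at 11 genes, had 7 called higher.

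Simple properties of the carriers were set against their response. Across the 40 members, Spearman's rho of the log2 fold change with SF3B1 siRNA was 0.28 with the mean log2 CPM, -0.0017 with mRNA length and -0.10 with the number of merged exon blocks, given as a description over genes that share the same libraries. The mean log2 CPM takes in the siSF3B1 libraries and was the value that chose the members, so its rho is partly built in.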

How the data were processed

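The deposited table holds 1 log2 CPM value per gene and library, read counts scaled by library size with a prior count, made by the authors. Per the submitters' processing notes, the build was GRCh38.p13 and the tools, in no stated order, included edgeR 3.24.3, featureCounts, STAR 2.7.0a, Trimmomatic 0.35, Subread 1.5.0 and SAMtools 1.9. The values stepped as whole reads do, and 100% came back as whole reads within 0.01 read, with a mean prior of 2.0 reads. The effective library size the values imply was 1.02 to 1.06 times the recovered total in the siCtrl libraries. In the siSF3B1 libraries it was 0.927 to 0.949 times that total, which raises their deposited values relative to siCtrl. The alternative with plain read totals leaves this factor out. Library pairs within groups differed by more than sampling noise (chi-square per degree of freedom 8.39 to 20.6) and were all kept as separate libraries.

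Genes with a mean above 0 log2 CPM were fitted with limma 3.58.1 in R 4.3.3, with 1 mean per group over all 8 libraries (5 residual degrees of freedom), an intensity trend and no added pseudocount. Tests were two-sided, with Benjamini-Hochberg adjustment over all 13112 genes. The procedure was run on simulated reads with a common spread, few changed genes and no effect of library sets, a simpler setting than these data. There, log2 changes of 0.5 were called in 74.2% of changed genes for hypoxia and 73.1% for the siRNA. For log2 changes of 1 the shares were 95.5% and 96.8%. Alternatives were no filter, a stricter filter at 1 log2 CPM, plain read totals, quantile normalization, median centring, limma's voom on the recovered counts, a fit to the compared groups alone, a block for library-number sets and leaving out each library. Voom called 8636 genes with the siRNA and 783 with hypoxia.

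Titles number the 8 libraries from 1 to 9, and none of them bears the number 7. The sets 1 to 3, 4 to 6 and 7 to 9 hold at most 1 library per group. Deviations from group means correlated between libraries of the same set at 0.344 to 0.430, and between sets at -0.42 to 0.06. Deviations within a group sum to 0, which ties these values to each other and draws those between sets below 0. The pairing of libraries by set is thus read from the data, and the pairs are not independent of each other. The calls given are from the fit without this block, and the blocked value is given where it changes the call of a member. What the numbers mark is not stated.

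Values per library are given for called members, up to the 10 with the largest change per comparison, and for the ADP/ATP, phosphate, mitoferrin and aspartate-glutamate carriers. Of lists outside the family, genes were named from the 3 with the smallest p per direction, and not all of them are given. The values of 1 member, which stays in all counts, are not reported here. Members and lists were chosen with earlier results of these data known. Coordinates and exon overlaps are from GENCODE 29, and mRNA length is the median over a gene's transcripts with a RefSeq match. Motifs and promoters are from RefSeq tables.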

Additional observations from a re-analysis of the deposited data

How the results depend on the processing

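Both hypoxia calls of carriers held under all 16 alternatives, and with SF3B1 siRNA no called carrier changed sign under any. A replicate block for the library-number sets raised the genes called with hypoxia to 1645 (1048 higher, 597 lower) and those of the other lists from 12 to 20. Leaving out 1 library gave 278 to 881 genes called with hypoxia (257 to 660 higher, 21 to 221 lower), lowest without siCtrl replicate 1 at 21% oxygen. Plain read totals gave 275 genes lower with hypoxia and 7 carriers higher with the siRNA. The other changes of sign were in log2 fold changes near 0. With hypoxia they were SLC25A22 (-0.015 with plain totals, -0.0011 with quantile normalization, -0.019 with the block), SLC25A10 (-0.0055), SLC25A32 (-0.020) and SLC25A51 (-0.023) with plain totals, and SLC25A51 with quantile normalization (-0.015). With the siRNA they were SLC25A28 (-0.11), SLC25A15 (-0.026), SLC25A26 (-0.015) and MTCH2 (-0.084) with plain totals, and MPC1 (0.052), MTCH2 (-0.080) and CS (-0.027) with quantile normalization; of these only CS was called under the deposited scaling. When single libraries were left out, the hypoxia values of uncalled genes ran from -0.047 to 0.026 for SLC25A24, -0.021 to 0.063 for SLC25A22, -0.015 to 0.22 for SLC25A21, -0.20 to 0.035 for SLC25A39, -0.057 to 0.12 for SLC25A10, -0.17 to 0.13 for SLC25A12, -0.067 to 0.32 for SLC25A1, -0.23 to 0.074 for SLC25A46, -0.0015 to 0.024 for SLC25A32, -0.041 to 0.065 for SLC25A51 and -0.25 to 0.030 for UCP2. With the siRNA they ran from -0.12 to 0.00076 for SLC25A44 and from -0.014 to 0.075 for SLC25A28. The cause was not tested. SLC25A21, SLC25A42 and SLC25A53 had at most 80 reads in any library.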
